A study of Mus musculus with 4 samples.

Results

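The cytosolic ribosomal protein genes encode the proteins of the small (Rps) and the large (Rpl, Rplp) subunit of the ribosome that translates nuclear mRNAs. Members were all genes whose symbol is Rps or Rpl followed by a number and an optional letter suffix, with Rpsa and Rplp0 to Rplp2 added and with pseudogenes and the S6 kinases left out. The rule found 84 of the 32285 genes measured, 32 of the small and 52 of the large subunit. The cells came from 2 INK-ATTAC mice that received no treatment, 1 young (6 months) and 1 old (24 months). The INK-ATTAC transgene makes caspase 8 that a drug can activate in cells where part of the p16 promoter is active, and both mice carried it without the drug. Femur and tibia cells were depleted of blood lineages, sorted as CD45−, stained with an oligonucleotide-tagged CD24 antibody and read by CITE-seq, which counts mRNA and antibody in the same cell as unique molecular identifiers (UMIs). With 1 library per age, values of the ages are set side by side without a test, and intervals given for them cover counting error only.

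Ribosomal protein mRNAs are among the most abundant of a growing cell, which must make new ribosomes before it divides. Many of them, like those of the translation elongation factors, share a pyrimidine-rich start through which mTOR and Larp1 govern their translation. Several proteins have a second gene, such as Rpl39l beside Rpl39 or Rpl22l1 beside Rpl22, whose product can take the same place in the ribosome and whose mRNA is often restricted to certain tissues.

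The promoters of 4 such pairs are shown because the share of the second gene differed between cell classes in each of them. Each line gives 50 bases before and 30 after the annotated start, 5′ to 3′ on the strand of the gene, from RefSeq (GRCm38.p6). Capitals mark CGGAAG or its reverse complement, the core of an ETS factor site.
Rpl39, chrX:37085193-37085272, minus strand: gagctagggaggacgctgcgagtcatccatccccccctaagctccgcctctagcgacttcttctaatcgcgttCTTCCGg
Rpl39l, chr16:10170178-10170257, plus strand: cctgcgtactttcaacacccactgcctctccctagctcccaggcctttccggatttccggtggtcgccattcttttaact
Rpl22, chr4:152325676-152325755, plus strand: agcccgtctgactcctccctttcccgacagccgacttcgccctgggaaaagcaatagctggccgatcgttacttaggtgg
Rpl22l1, chr3:28805458-28805537, plus strand: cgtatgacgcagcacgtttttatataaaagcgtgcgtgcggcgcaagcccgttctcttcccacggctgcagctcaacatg
Rps27, chr3:90213619-90213698, minus strand: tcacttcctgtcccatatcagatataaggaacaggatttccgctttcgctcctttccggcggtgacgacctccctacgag
Rps27l, chr9:66946036-66946115, plus strand: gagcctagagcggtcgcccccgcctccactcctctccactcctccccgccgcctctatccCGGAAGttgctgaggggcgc
Rpl36a, chrX:134585604-134585683, plus strand: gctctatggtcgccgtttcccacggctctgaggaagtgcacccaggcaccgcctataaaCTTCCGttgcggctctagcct
Rpl36al, chr12:69184038-69184117, minus strand: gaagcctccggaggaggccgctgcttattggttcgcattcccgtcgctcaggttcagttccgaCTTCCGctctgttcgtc

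Promoter windows of 300 bases, 250 before and 50 after the start, were matched by symbol for 64 of the 84 members. CGGAAG on either strand was in 43 of the 64 (67.2%), against 17.2% of the 27025 promoters in the table, and its longer form CCGGAAG was in 39.1% against 9.12%. A run of at least 8 pyrimidines between 50 bases before and 30 after the start was in 35 of the 64 (54.7%), against 30.2% of all promoters. CCCGCCC was in 46.9% against 25.8%, ATGGCGG in 15.6% against 4.19%, AAGATGG in 14.1% against 6.48% and TCTCGCGAG in 9.38% against 0.718%. The E-box CACGTG, a site of Myc, was in 7.81% of the members and 7.24% of all promoters, and TATAAA was in 9.38% against 14.2%. The 8 letter motifs were searched on both strands and the pyrimidine run on the strand of the gene, and each CCGGAAG also holds a CGGAAG. A match describes the letters of the window only.

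Ribosomal protein genes took up 15.9% of the RNA UMIs of the young library (95% exact Clopper-Pearson interval 15.89 to 15.91, 77411705 UMIs in 9794 cells) and 15.5% of the old (15.48 to 15.50, 65543384 UMIs in 5550 cells). The old library was thus lower by 0.417 percentage points. In the median cell the share was 11.3% (young) and 11.1% (old), and the middle of the distribution (quartiles) ran from 8.08 to 15.5% and from 7.23 to 16.1%. With the old cells weighted to the class mix of the young library, the old share was 15.9%. The small subunit genes gave 0.793 UMIs per large subunit UMI in the young and 0.773 in the old library. The median depth of a cell was 6296 UMIs (young) and 9667 UMIs (old), and 19 barcodes occurred in both libraries. Barcodes that the filter removed had shares of 3.78 and 4.09%.

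A count of UMIs is a count of mRNA molecules read at the 3′ end and was not divided by gene length. Of the 84 members, 83 had UMIs in both libraries, and 54 were among the 100 genes with the most UMIs. Among the 5 most abundant, Rpl13 had a CPM (the customary scaling of UMIs to 1 fixed total per library or group of cells) of 3781 in the young and 3454 in the old library. Near it stood Rps12 with 3708 and 3507, Rps24 with 3752 and 3446, and Rplp1, a protein of the ribosomal stalk, with 3631 and 3584. The 20 most abundant members held 37.0% of all ribosomal protein UMIs. At the other end stood second copies. Rps27l had 344 and 321 CPM, Rpl7l1 63.3 and 58.6, and Rpl39l 25.3 and 27.6, while Rpl3l, a gene of striated muscle, had 60 and 52 UMIs in all. Rpl10l, which replaces Rpl10 in male germ cells, had 0 UMIs in either library, which allows up to 3 in each library by counting error.

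Cells fell into 25 clusters, made without the member genes, of which 20 could be named from marker lists and grouped into 11 classes. Blood classes remained among cells sorted as CD45−. The name blood progenitor-like rests on only 3 of its 7 markers, Kit, Myb and Gata2, and the erythroid marker Car1 was also among the leading genes of that cluster. The ribosomal protein share differed more between classes than between the libraries. Blood progenitor-like cells had the highest share, 36.4% in the young (278 cells) and 37.9% in the old library (137 cells). Erythroid-like cells followed with 30.0 and 27.0%, B-lineage-like cells with 20.9 and 17.6%, and megakaryocyte-like cells with 20.2 and 20.3%. For B-lineage-like cells the direction between the libraries depended on the measure, since the median cell had 19.9% (young) and 21.2% (old). The mesenchymal classes were lower. Fibroblast-like cells had 14.7 and 15.2%, osteoblast-like cells 12.3 and 12.4%, tendon or periosteum-like cells 11.8 and 12.1%, chondrocyte-like cells 11.7 and 10.8% (82 and 9 cells), pericyte-like cells 10.4 and 9.90%, and stromal-like cells, the Lepr and Cxcl12 expressing cells of the marrow, 8.47 and 8.29%. Neutrophil-like cells had the lowest share, 5.47 and 3.56%.

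**Figure D1:**
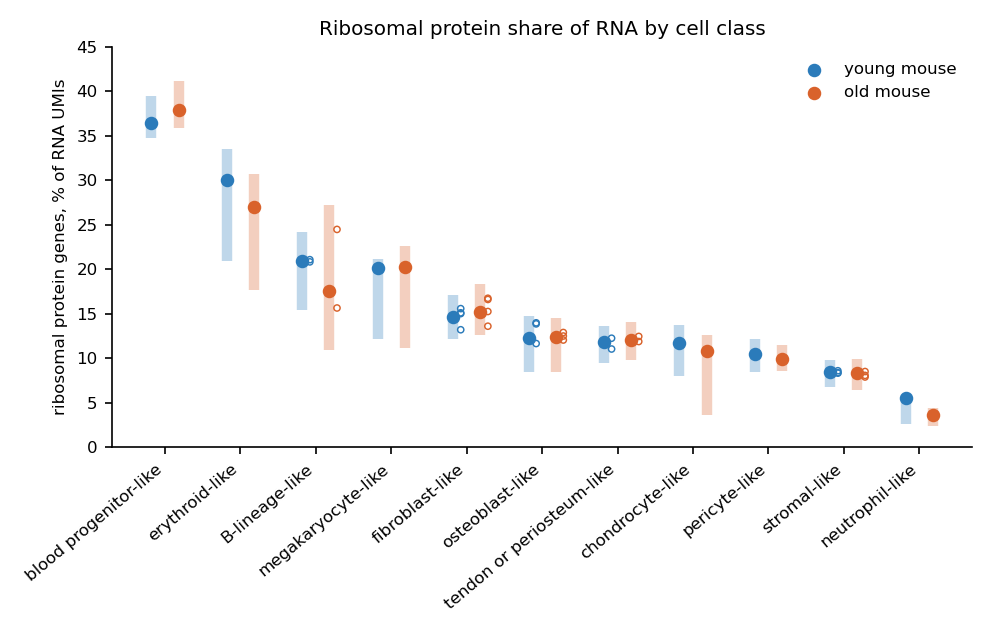
Share of RNA UMIs from ribosomal protein genes (y axis, %) in 11 cell classes of the young and the old mouse. Filled points are sums over cells, shaded bars the quartiles over cells and open points the single clusters of classes with several. The order of the classes is nearly the same in both mice, from 36.4 and 37.9% in blood progenitor-like cells to 5.47 and 3.56% in neutrophil-like cells.

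The order of the classes had a Spearman rho of 0.991 between libraries (a description over 11 classes that share their libraries). The highest class exceeded the lowest 6.66-fold in the young and 10.7-fold in the old library. Depth moved with the class in part. Blood progenitor-like cells were also the deepest, with a median of 25122 and 34467 UMIs, and neutrophil-like cells were shallow, with 2891 and 3891. B-lineage-like cluster 19, however, had 21.1% at a median of 2736 UMIs in the young library, and stromal-like cluster 0 had 8.57% at 5280. Of the B-lineage-like cells, 217 of 374 in the young library but 28 of 84 in the old lay in cluster 18, and the remainder in cluster 19. Cluster 18 had 20.8 and 24.5%, and cluster 19, whose leading genes were immunoglobulin genes, had 21.1 and 15.6%. In the median cell, clusters 18 and 19 had 18.4 and 21.1% in the young and 24.8 and 19.6% in the old library. The part of depth and of the cluster mix in these values was not tested.

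Within the mesenchymal lineage the fibroblast-like and stromal-like cells formed the ends. The 4 fibroblast-like clusters lay between 13.2 and 16.7%, the 3 osteoblast-like clusters between 11.6 and 14.0% and the 3 stromal-like clusters between 7.87 and 8.57% over both libraries, so that the ranges of fibroblast-like and stromal-like clusters did not overlap. Among the osteoblast-like clusters, cluster 2, led by Tnn, Ostn, Postn and Alpl in that order, had 11.6 and 12.0%. Cluster 15, led by the osteocyte genes Dmp1 and Spp1, had 14.0 and 12.5%, and cluster 21, led by Bglap, 13.8 and 12.9%. In the median cell, clusters 2, 15 and 21 had 11.2, 12.1 and 13.1% in the young and 11.8, 9.21 and 11.9% in the old library. By that measure cluster 15 was the lowest of them in the old library. Over the 6 mesenchymal classes together the share was 12.1% in either library (7410 and 3843 cells).

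The members were high or low together in a class. Of the 82 members with at least 1000 UMIs per library, 81 had a higher CPM in blood progenitor-like than in stromal-like cells in the young and 81 in the old library, with median differences of 2.07 and 2.15 on the log2 scale. Fibroblast-like cells lay above stromal-like cells for 81 and 80 members, by a median of 0.79 and 0.86, and osteoblast-like cells for 81 and 81, by 0.54 and 0.56. Neutrophil-like cells lay above them for 3 and 2 members only, with medians of -0.73 and -1.47. The composition of the pool differed less between classes than its size. The share of a member in all ribosomal protein UMIs spanned a median of 0.65 (log2) from its highest to its lowest class, taking the smaller of the spans in the libraries, and for 70 of the 82 it spanned less than 1.

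**Figure D2:**
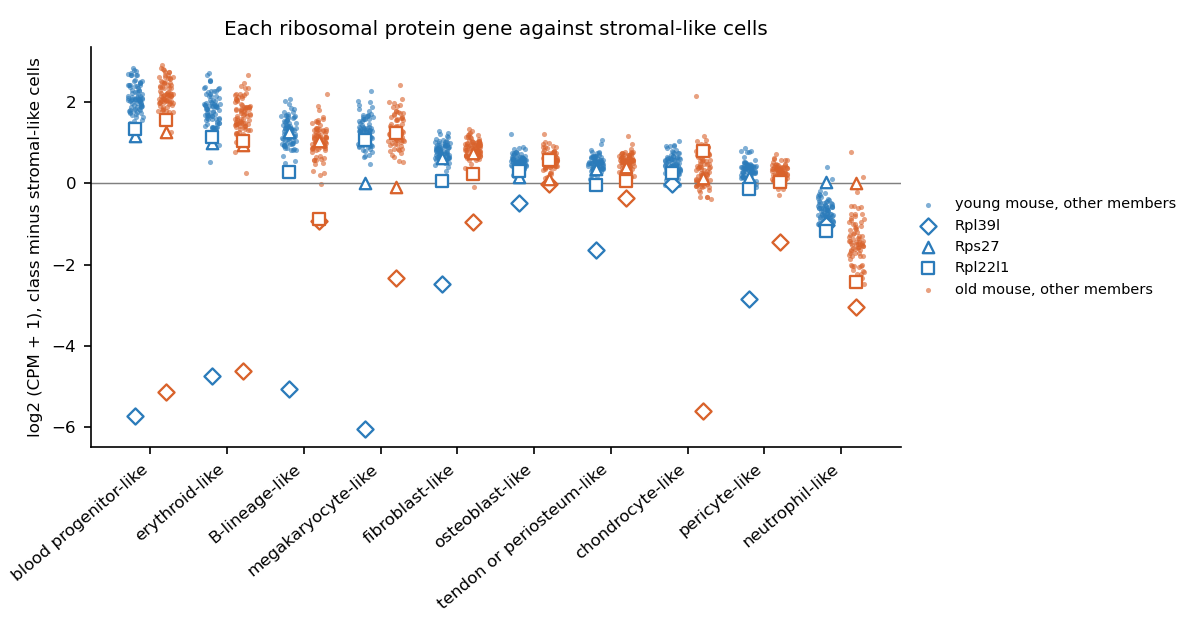
Difference of log2 (CPM + 1) between each class and the stromal-like cells of the same mouse (y axis) for 82 ribosomal protein genes. Small points are members, and open symbols mark Rpl39l, Rps27 and Rpl22l1. Most members lie above 0 in every class but the neutrophil-like cells, whereas Rpl39l lies below 0 in all classes, closest to it in chondrocyte-like cells of the young and osteoblast-like cells of the old mouse.

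By the rule, 5 members had the most variable composition, namely Rpl39l, Rps27, Rpl7l1, Rps9 and Rpl6. Rps27, whose protein holds a zinc finger, made up 0.472 and 0.510% of the ribosomal protein UMIs in megakaryocyte-like cells but 1.79 and 3.12% in neutrophil-like cells. Rps9, a protein of the decoding side of the small subunit, made up 2.92 and 5.33% in neutrophil-like cells and between 0.983 and 1.55% in every other class and library. In CPM, Rps9 had 1596 and 1896 in neutrophil-like cells, against 1215 and 1119 in stromal-like cells, the class with the next lowest total. Over all kept cells Rps9 had 2073 and 1899, so neutrophil-like cells did not exceed the library as a whole. Rpl6 stood out in megakaryocyte-like cells with 2.63 and 2.96%, against at most 1.55% elsewhere. Some copies of ribosomal protein genes are annotated as genes of their own and share sequence with them. Reads that fit a gene and such an annotated copy alike are not counted, so levels of single members are uncertain to that extent. The intact copy Rps27rt, which the rule does not take, had 3690 and 3683 UMIs.

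Rpl39l was the exception to the common pattern. Its protein can replace Rpl39 at the wall of the exit tunnel for the nascent chain, and it is best known from the testis. Stromal-like cells had 64.6 CPM of Rpl39l in the young and 47.6 in the old library, osteoblast-like cells 46.0 and 47.2, tendon or periosteum-like cells 20.0 and 37.0, fibroblast-like cells 10.9 and 24.1, and pericyte-like cells 8.07 and 17.0. Young chondrocyte-like cells had 64.2, while the 9 old cells had 0 Rpl39l UMIs beside 244 of Rpl39. Blood progenitor-like cells, which had the most of nearly all other members, had 2 Rpl39l UMIs in each library beside 37387 and 29297 of Rpl39. As a share of the pair, Rpl39l made up 4.83% (4.53 to 5.13) and 3.30% (3.06 to 3.56) in stromal-like cells, but 0.00535% (0.000648 to 0.0193) and 0.00683% (0.000827 to 0.0247) in blood progenitor-like cells. The intervals of stromal-like and blood progenitor-like cells were far apart in both libraries. Young chondrocyte-like cells had 3.13% (2.36 to 4.05), below the interval of the young stromal-like cells. Neutrophil-like cells had 37 and 9 UMIs, 3.76 and 1.02% of the pair, and old B-lineage-like cells 42 UMIs (0.863%), against 2 in the young (0.0261%). Values of a few UMIs cannot be told apart from free RNA in the droplets.

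**Figure D3:**
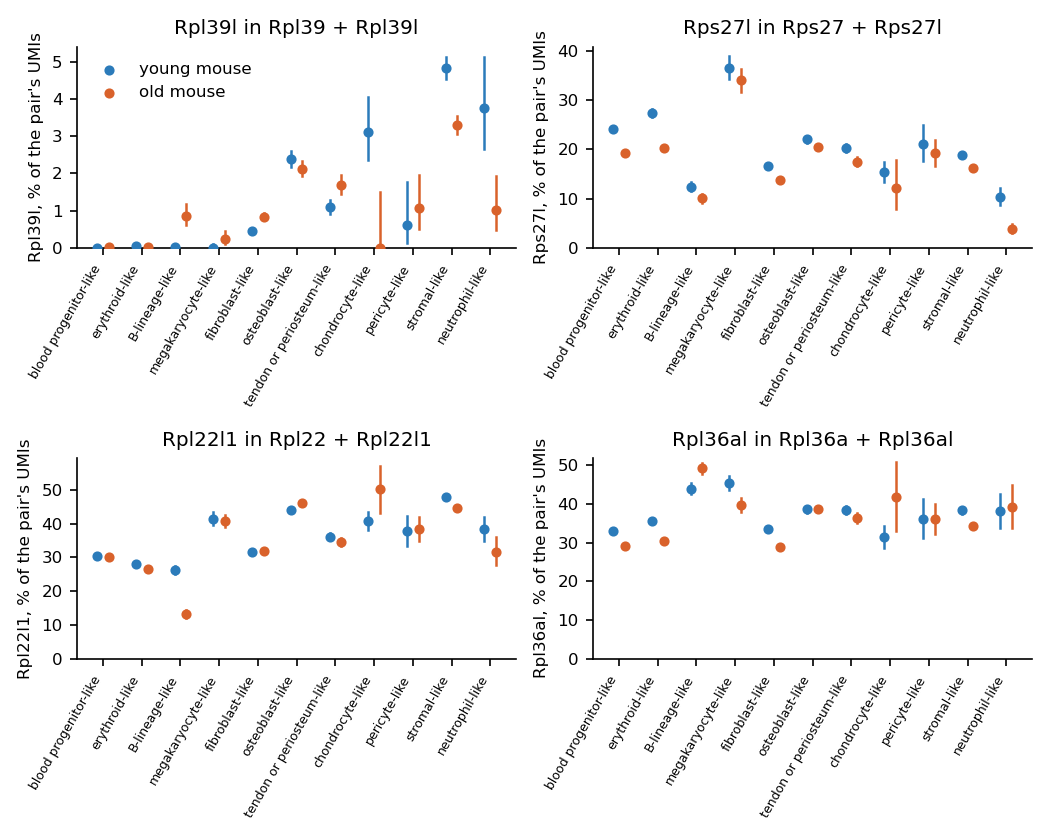
Share of the second gene in the UMIs of 4 gene pairs (y axes, %, from 0) by class and mouse, with 95% exact Clopper-Pearson intervals as vertical lines. Rpl39l is near 0 in blood progenitor-like and erythroid-like cells and highest in stromal-like cells of the young mouse (4.83%), and Rps27l is highest in megakaryocyte-like cells (36.6 and 34.0%).

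The Rps27, Rpl22, Rpl36a and Rpl7 pairs had both genes in every class, in different proportions. Rps27l, a target of p53, made up 20.0 and 16.8% of the Rps27 pair over all cells, from 36.6 and 34.0% in megakaryocyte-like cells to 10.3 and 3.87% in neutrophil-like cells. Rpl22l1 made up 34.5 and 33.9% of the Rpl22 pair, with 48.0 and 44.8% in stromal-like and 44.1 and 46.2% in osteoblast-like cells, and less in fibroblast-like cells with 31.6 and 31.8%. In B-lineage-like cells Rpl22l1 was at 26.3 and 13.2%. Rpl36al made up 35.8 and 32.8% of the Rpl36a pair and Rpl7l1 3.95 and 4.03% of the Rpl7 pair. Rpl3l was at 0.0550 and 0.0599% of the Rpl3 pair over all cells, and 36 of its 112 UMIs were in neutrophil-like cells. B-lineage-like cells had 16 (young) and 4 (old), and most of what remained lay outside the named classes. Rps4l, the partner of Rps4x, was not analysed here.

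Genes outside the rule were compared with the total over the 22 points given by 11 classes and 2 libraries. These points share libraries and depth, so correlations describe them and carry no test. Members had a median Pearson r of 0.977 between log2 CPM and the log2 ribosomal protein share, of which they are part, against -0.0856 over the 7455 genes with at least 1000 UMIs per library. The 10 other genes nearest to the total were Rack1 (r = 0.995), Eef1b2 (0.988), Snrpg (0.969), Snrpf (0.967), Eif3i (0.961), Gm2000 (0.961), Npm1 (0.959), Eef1g (0.957), Mrpl30 (0.954) and Hdgf (0.954). Rack1 is a protein of the small subunit under another kind of name, Eef1b2 and Eef1g are parts of an elongation factor, and Npm1 is a nucleolar chaperone of ribosome assembly. Fau, whose gene also encodes a protein of the small subunit, had r = 0.578. The 20 elongation factor and related genes had a median r of 0.915, 29 measured ribosome biogenesis genes 0.829 and 73 mitochondrial ribosomal protein genes 0.821, whereas 16 genes that control ribosomal protein synthesis, such as those of the mTOR pathway, had -0.0164.

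Biogenesis genes took 0.876 and 0.817% of RNA UMIs in blood progenitor-like cells, 0.519 and 0.350% in erythroid-like cells, 0.193 and 0.187% in osteoblast-like cells and 0.101 and 0.0584% in neutrophil-like cells. Elongation factor and related genes took 2.98 and 3.01% in blood progenitor-like and 0.609 and 0.436% in neutrophil-like cells. Both lists thus had the same classes at their ends as the ribosomal protein genes.

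Between the ages, single members were compared by their share in the ribosomal protein UMIs of the mesenchymal classes, so that a change of the total drops out. The values lay close to 0, with a median of -0.03 (log2, old minus young), 32 members above 0 and 50 below. Past 0.25 in either direction were 3 of 82 members, all higher in the old library, against 11.8% of 5949 genes past that limit with 7.19% higher and 4.57% lower. On the scale of all RNA UMIs 2 members passed, both higher, against 11.7% of the genes (6.93% higher and 4.79% lower). The 5 highest were Rps28 at 0.29 (95% counting interval 0.28 to 0.30), Rpl38 at 0.28, Rpl26 at 0.25, Rpl41 at 0.24 and Rps27 at 0.23. In the summed mesenchymal classes, Rps28 had 1609 CPM in the young and 1958 in the old library, and Rpl41, the shortest ribosomal protein, stood at 2341 and 2751. Rps28 was above 0 in 6 of 6 mesenchymal and 4 of 5 blood classes, and Rpl41 in 5 of 6 and 5 of 5.

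Among the 5 lowest were Rps4x at -0.14 (-0.16 to -0.13), Rps9 at -0.11, Rpl7 at -0.10 and Rps16 at -0.10, each below 0 in 6 of 6 mesenchymal classes. Rps4x, encoded on the X chromosome, had 2088 CPM in the summed mesenchymal classes of the young and 1883 in those of the old library. These ratios compare 2 libraries, and age cannot be told apart from library, since each age was 1 mouse processed as 1 library. None of the 20 elongation factor and related genes and none of 61 mitochondrial ribosomal protein genes passed 0.25, with medians of -0.05 and -0.07.

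**Figure D4:**
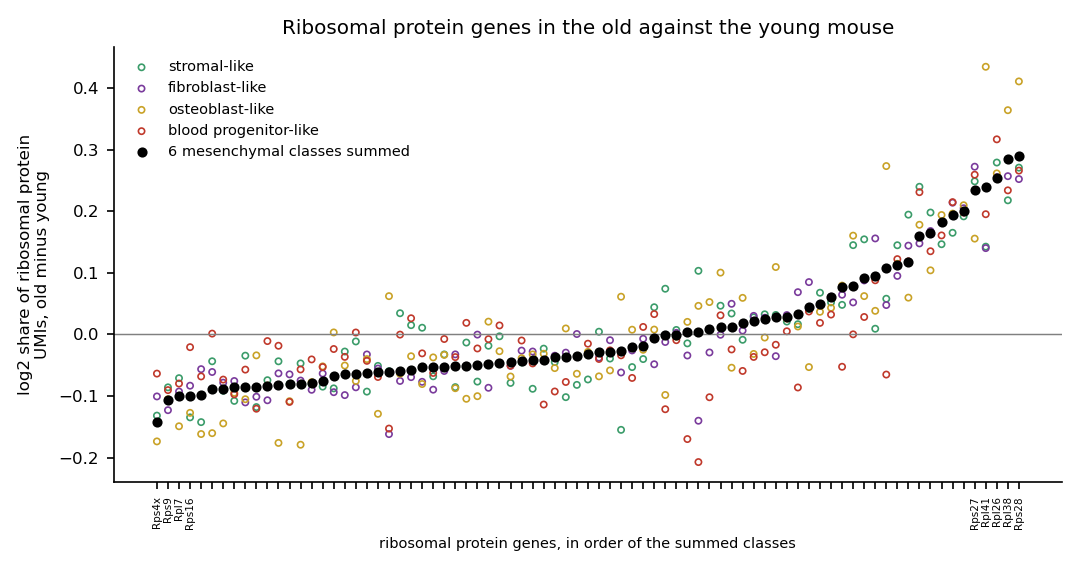
Old minus young difference of each member's share in the ribosomal protein UMIs (y axis, log2) for 79 genes, Rpl39l among those left out, in order of the summed mesenchymal classes (black points), with 4 classes as open points and the genes named in the comparison of the ages labelled. Most genes lie near 0, and Rps28, Rpl38, Rpl26, Rpl41 and Rps27 are highest, and lie above 0 in the blood progenitor-like cells too.

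CD24 is a glycoprotein of the cell surface, and the antibody allowed CD24+ and CD24− cells of the same mouse to be compared. Cells above 317 (young) or 403 (old) antibody UMIs were called CD24+, giving 1464 and 739 cells. Over all kept cells, ribosomal protein genes made up 23.4% of the UMIs of CD24+ and 13.7% of CD24− cells in the young mouse, and 25.5 and 12.8% in the old. In edgeR's quasi-likelihood test on 4 sums from 2 mice, with Benjamini-Hochberg adjustment over 16162 genes, 81 of 83 members were higher in CD24+ cells and 1 was lower, where 28.7% of all genes were called higher and 29.0% lower (57.7% in all). The members' median was 1.16 (log2), against -0.06 over all genes. When library totals replaced the normalization factors, the median of all genes was -0.33, 72 members were called higher and 1 lower, and 37.4% of all called genes were higher, against 49.7% with the factors.

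The highest members were Rpl3l at 1.89 ± 0.65 (SE, adjusted p = 0.0294), which rests on 112 UMIs and stood at 3.26 (young) and 0.40 (old), Rps26 at 1.59 ± 0.32, Rps18 at 1.55 ± 0.32, Rpl14 at 1.46 ± 0.29 and Rpl32 at 1.46 ± 0.34. Rps26, a protein near the mRNA exit of the small subunit, had 3474 CPM in CD24+ and 1397 in CD24− cells of the young mouse and 4475 and 1235 in the old. Among those called higher, the smallest changes were those of Rps27 (0.71 ± 0.28), Rpl7l1 (0.74 ± 0.16), Rps4x (0.83 ± 0.31) and Rpl30 (0.86 ± 0.31). Rpl10 was not called (0.55 ± 0.29, adjusted p = 0.124). The member called lower was Rpl39l at -1.11 ± 0.19 (adjusted p = 0.000727), with 14.0 against 26.4 CPM in the young and 11.7 against 29.2 in the old mouse. That sign did not hold in the mesenchymal classes alone, where Rpl39l stood at 0.20 ± 0.10 (edgeR adjusted p = 0.263), with 0.27 (young) and 0.14 (old). In osteoblast-like cells it stood at -0.11 ± 0.15 and was not called either.

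Most of the related lists went the same way by edgeR. All 40 ribosome biogenesis genes, 18 of 20 elongation factor and related genes, 72 of 78 mitochondrial ribosomal protein genes and Fau and Rack1 were called higher, and 1 mitochondrial gene, Mrps6, lower (-0.84). Of 19 genes that control ribosomal protein synthesis, 6 were called higher, 1 lower (Mxd4, a Myc antagonist, -1.18) and 12 neither. Over all genes 28.7% were called higher and 29.0% lower, so the part of this list called higher was near that of all genes. Larp1, which binds the pyrimidine start of these mRNAs, was higher by 0.94 ± 0.16, and Myc (0.10, adjusted p = 0.621) was not called.

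The cell classes moved with CD24. Mesenchymal classes gave 36.1% (young) and 25.8% (old) of CD24+ cells, erythroid-like cells 20.7 and 44.9%, B-lineage-like cells 25.3 and 7.58% and blood progenitor-like cells 7.38 and 11.2%. CD24− cells were also sampled so that their classes matched those of CD24+ cells within each mouse. Classes with under 20 cells of either status were left out, among them the young erythroid-like and B-lineage-like cells. That kept 767 of 1464 young and 712 of 739 old CD24+ cells, but only 40 CD24− cells of the old mouse. Those 40 held all 20 old CD24− erythroid-like cells, whose low share and depth are given below. With these cells edgeR called 0 of 82 members (4 at an unadjusted p under 0.05), with a median of 0.09. Of all genes it called only 203 of 13712, 146 higher and 57 lower. The shares in the matched cells were 21.0% in CD24+ and 20.8% in CD24− cells of the young mouse and 25.8 and 21.4% in the old. The 14 and 20 erythroid-like cells that were CD24− had shares of 3.69 and 3.38%, against 30.3 and 27.4% in the 303 and 332 that were CD24+. Their median cell had 0.979% (young) and 10.7% (old), the latter well above the sum over cells, and their median depth was 1127 and 1108 UMIs, against 10816 and 13448 in CD24+ erythroid-like cells. Within the blood progenitor-like class, CD24+ cells had the lower share, 35.7 against 37.2% in the young and 37.2 against 39.4% in the old mouse.

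In the mesenchymal classes alone, CD24+ cells (529 young, 191 old) had 11.5 and 12.0%, and CD24− cells (6881 and 3652) 12.2 and 12.1%. By edgeR, 0 of 82 members were called, against 9.66% of 14959 genes (4.81% higher and 4.85% lower), and DESeq2 also called 0. At an unadjusted p under 0.05 stood 6 members by edgeR and 1 by DESeq2. The median was 0.03, but -0.05 when library totals replaced the normalization factors, so no direction of the group can be given. Of all called genes, 49.8% were higher with the factors and 37.4% without. The largest change was that of Rpl41, 0.21 ± 0.05 (adjusted p = 0.0644, range over the alternatives 0.0108 to 0.960), with 2540 against 2273 CPM in the young and 3169 against 2644 in the old mouse. Rpl41 is named here after its values were seen, and it stood at -0.03 with CD24− cells of matched classes. Among the related lists, 1 ribosome biogenesis gene, Nhp2, was called higher (0.44 ± 0.09, adjusted p = 0.0300).

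Osteoblast-like cells are those the study's question concerns. Here the CD24+ cells had the lower ribosomal protein share, 11.1% (251 cells) against 12.7% (991 cells) in the young and 11.8% (94 cells) against 12.5% (552 cells) in the old mouse. In the old mouse the gap was smaller in other settings, with 11.24 against 11.35% in cells thinned to 2000 UMIs, 11.88 against 12.07% with the cluster mix matched and 11.24 against 11.37% in the median cell. In the young mouse the thinned cells had 10.6 against 12.1% and the matched ones 11.0 against 12.4%. CD24+ cells were also deeper, with a median of 9215 against 5623 UMIs (young) and 15843 against 10789 (old), and the part of depth was not tested. By edgeR, 1 of 82 members was called, lower in CD24+ cells, where 4.38% of 11908 genes were called, 2.32% higher and 2.07% lower. That gene was Rpl22l1 at -0.33 ± 0.10 (adjusted p = 0.0238), with 533 against 678 CPM in the young and 581 against 726 in the old mouse, so CD24+ cells were lower in both. Its partner Rpl22 stood at -0.0043 ± 0.10, with 794 against 818 and 835 against 815 CPM. The call of Rpl22l1 was lost at a similar change by edgeR without the mouse as a block (-0.33, adjusted p = 0.895) and with DESeq2 (-0.33, adjusted p = 0.812). Few genes were called there at all, 0 of 11908 without the block and 68 of 14125 with DESeq2. The call was also lost at a smaller change with cells thinned to 2000 UMIs (-0.22, edgeR adjusted p = 0.691) and with the cluster mix matched (-0.15, adjusted p = 0.951). Over all alternatives the adjusted p of Rpl22l1 ranged from 0.0111 to 0.951. The median over the members was -0.11, against -0.0049 over all genes, and 66 of 82 were below 0 in both mice, although only Rpl22l1 passed the test. At an unadjusted p under 0.05 stood 6 members. None of the related lists had a gene called.

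**Figure D5:**
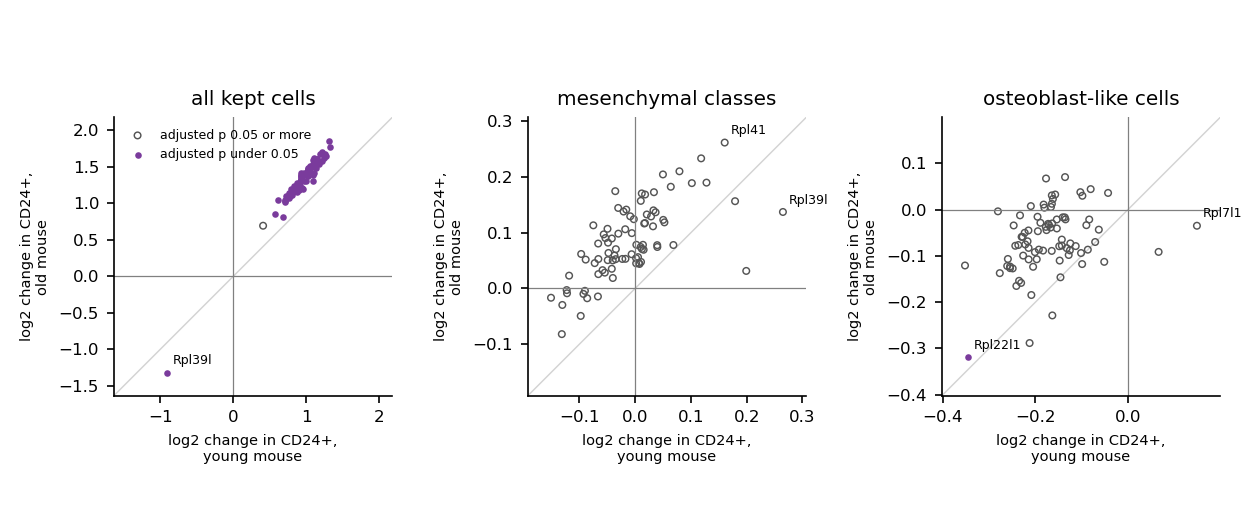
Log2 change of each ribosomal protein gene in CD24+ against CD24− cells in the young (x axis) and the old mouse (y axis), in all kept cells, the mesenchymal classes and osteoblast-like cells. Each point is 1 gene, Rpl3l is left out, filled points have an edgeR adjusted p under 0.05, and the grey diagonal marks equal change. In all kept cells nearly all points lie above 0.5 and Rpl39l at -0.91 and -1.32, while in osteoblast-like cells most points lie below 0 in both mice and the only filled point, Rpl22l1, lies at -0.35 and -0.32.

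By class, the sign of the CD24 difference was not uniform. Stromal-like CD24+ cells had 8.96 and 9.31% against 8.45 and 8.26% in CD24− cells, but in the old mouse the median CD24+ cell had 7.99%, against 8.04% in CD24− cells. In contrast, fibroblast-like CD24+ cells had 13.9 and 14.3% against 14.7 and 15.2%. Tendon or periosteum-like cells had 11.8 and 13.1% against 11.8 and 12.0%. These differences were not tested. The CD24+ cells numbered 87 and 37 stromal-like, 103 and 34 fibroblast-like and 53 and 16 tendon or periosteum-like cells.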

How the data were processed

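Per the labels and the study's methods, the authors made the libraries with 10x droplets and counted UMIs with Cell Ranger against mm10. The file headers give Cell Ranger version 6.1.1, which differs from the version named in the study's methods. The deposited files hold raw UMI counts per gene and per CD24 antibody for each barcode, 1 matrix per mouse. How reads shared by near-identical copies were counted follows Cell Ranger, which leaves out reads that map equally well to several genes. The submitters' processing notes also name R 4.0.3 and Seurat 4.0, and the authors' own clusters were not used here.

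Barcodes with at least 200 genes and at most 20% mitochondrial UMIs were kept, and doublets called by Scrublet (scanpy 1.11.5, 269 young and 57 old barcodes) were left out. Cells were clustered without member genes (Seurat 5.3.0, sctransform 0.4.2, 30 components, resolution 0.8). Clusters were named from marker lists, with naming limits set after the clusters were seen. CD24+ cells were those above an Otsu threshold of the antibody count. UMIs were summed per mouse and CD24 status and tested with edgeR 4.0.16 (quasi-likelihood F test, two-sided, TMM, filterByExpr, Benjamini-Hochberg adjustment over all genes tested), with the mouse as a block, since both sums of a mouse came from the same animal. That leaves 1 residual degree of freedom from 4 sums of 2 mice. DESeq2 1.42.0 was an alternative. The scripts were tested on simulated data.

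Age was not tested. The genes named were the 5 most and 5 least abundant members, the 5 highest and lowest called changes with 1 sign in both mice, and the 5 highest and lowest age ratios. Also taken were the 5 most variable between classes, 8 gene pairs, Fau, Rack1 and the 10 genes nearest to the total. Of the pairs, that of Rps4x and Rps4l was not analysed. Some genes that these rules take are not reported here. Further genes are named as examples of the lists. The members and lists were chosen with earlier results of these data known. Intervals cover counting error only. Python 3.11.15, scipy 1.17.1 and R 4.3.3 were used.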

Additional observations from a re-analysis of the deposited data

How the results depend on the processing

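The ribosomal protein share of the young and the old library and their difference were 15.99%, 15.61% and -0.388 percentage points at no more than 10% mitochondrial UMIs, and 12.66%, 12.59% and -0.0716 as the mean of single cells. With mitochondrial and hemoglobin UMIs left out they were 16.46%, 16.10% and -0.362. The libraries had 15.93 and 15.51% with at least 500 genes per cell and 16.27 and 15.85% with genes outside the symbol rule added, Fau and Rack1 among them. With doublets kept, the young share was 15.97% and the difference -0.487. The highest class exceeded the lowest by 31.0 and 34.3 points (young and old), by 32.6 and 35.1 as means of single cells and by 31.7 and 35.2 without mitochondrial and hemoglobin UMIs.

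In all kept cells, 82 members were called, 81 without the mouse as a replicate block and 0 with CD24− cells drawn to the class mix. In that mix only 203 of 13712 genes were called, and Rps4x turned to -0.021. Without normalization factors, 72 were called higher and 1 lower, and the median of all genes moved to -0.33. In the mesenchymal classes 1 member, Rpl41, was called without a filter on low counts, with the mixture threshold and at no more than 10% mitochondrial UMIs, and 0 without the block. In osteoblast-like cells 0 of 11908 genes were called without the block. The members called were 0 in that setting, with DESeq2, with thinned cells and with the matched mix, and 1 otherwise. The cause was not tested. Without either mouse no residual degrees of freedom remain, so those values carry no test. Each age is 1 mouse, which limits every comparison of the ages to the 2 libraries.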

Other observations

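Of the 5 clusters that could not be named, 2 had low shares or shares that differed between the libraries. Cluster 12 (263 young and 201 old cells) had 4.49 and 2.73% ribosomal protein UMIs. Cluster 20 held 13 young and 191 old cells of median 1119 and 989 UMIs, with shares of 2.11 and 19.2%, so it was mostly of the old library. Cluster 16, led by the skeletal muscle genes Acta1, Tnnt3 and Ckm, had 11.7 and 12.2% in the sum over cells but 3.49 and 3.25% in its median cell.

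Megakaryocyte-like cells, whose share of 20.2 and 20.3% differed least between the libraries among the blood classes, had a median of 0.0271 and 0.0830% mitochondrial UMIs. Mitochondrial ribosomal protein genes took 0.739 and 0.721% of their UMIs, against 0.442 and 0.417% in stromal-like cells.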
